A study of Mus musculus with 3 samples.

Results

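Angpt1, Angpt2, Tek, Tie1, Apln, Aplnr, Nr2f2, Ephb4 and Esm1 are 9 of the 31054 features in single-cell RNA sequencing of mouse forelimb buds at embryonic day 9.5. They were taken by symbol as ligands and receptors of the angiopoietin and apelin pathways and as genes of vein and sprouting-tip endothelium, and all 9 were in each of the 3 matrices. Their levels were read in cell classes set by marker genes. Endothelial cells were those in which Cdh5, Pecam1 and Emcn summed to at least 2 per 10000 unique molecular identifiers (UMIs, the molecules counted).

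Control embryos were Esco2fl/fl, homozygous for a floxed allele of the gene for a cohesin acetyltransferase. Mutant embryos were Esco2fl/fl;Prrx1-CreTg/0, so both groups carried the floxed alleles and the mutants also carried 1 copy of a Cre transgene. Prrx1-Cre is driven in limb bud mesenchyme and not in endothelium. The data were 1 control library and 2 mutant libraries, called control 1, mutant 1 and mutant 2. Each pooled 3 samples, or 6 limb buds, from 2 males and 1 female, and the cells had been frozen and thawed. Whether separate litters gave the libraries is not stated, so p-values measure only the spread between these 3.

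Tek encodes Tie2, the receptor tyrosine kinase that binds the angiopoietins, and Tie1 encodes its partner, which has no established angiopoietin ligand of its own. Angpt1, made largely by cells around vessels, activates Tie2, and Angpt2, released by endothelium, antagonises it in many settings. Apelin, encoded by Apln, is a peptide of sprouting endothelium and signals through the G protein-coupled receptor Aplnr. Nr2f2 encodes COUP-TFII, a nuclear receptor that sets venous identity, Ephb4 encodes the venous receptor for ephrin B2, and Esm1 encodes the secreted proteoglycan endocan, a marker of tip cells.

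The 250 bases before the RefSeq start sites of Esm1, Nr2f2 and Apln are printed from GRCm38.p6, 5′ to 3′ on each gene's own strand. Esm1 and Nr2f2 are shown because they were furthest apart, in opposite directions, between arterial-gated and other endothelium, and Apln because it had the largest difference between mutant and control endothelium among the 8 tested. Capitals mark AGGAAG, a core letter string of ETS family motifs, on either strand. TGGGAA, the core string of the RBPJ motif, was searched too and was in none of the 3. RefSeq promoters were matched for 6 of the 9 genes, and those of Angpt1, Angpt2 and Aplnr were not used here.
Esm1: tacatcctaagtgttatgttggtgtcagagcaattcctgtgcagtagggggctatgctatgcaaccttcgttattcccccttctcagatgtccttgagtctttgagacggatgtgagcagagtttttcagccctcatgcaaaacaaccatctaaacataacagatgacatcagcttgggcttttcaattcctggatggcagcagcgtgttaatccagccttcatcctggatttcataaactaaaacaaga
Nr2f2: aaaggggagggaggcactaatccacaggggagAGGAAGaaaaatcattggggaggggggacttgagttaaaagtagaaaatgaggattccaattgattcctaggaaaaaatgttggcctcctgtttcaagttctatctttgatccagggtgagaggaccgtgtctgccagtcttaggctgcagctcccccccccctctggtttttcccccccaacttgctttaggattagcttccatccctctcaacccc
Apln: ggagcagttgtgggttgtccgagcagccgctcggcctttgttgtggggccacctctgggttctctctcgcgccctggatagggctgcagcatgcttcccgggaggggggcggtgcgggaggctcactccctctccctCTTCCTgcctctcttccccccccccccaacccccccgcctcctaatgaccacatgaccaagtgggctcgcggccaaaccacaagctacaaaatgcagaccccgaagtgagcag
The Esm1 window is chr13:113209409-113209658 on the plus strand and held 3 CpG dinucleotides and neither string. The Nr2f2 window is chr7:70366747-70366996 on the minus strand, with 1 CpG and 1 ETS string on the gene's strand, at bases 218 to 213 before the start. The Apln window is chrX:48034854-48035103 on the minus strand, with 12 CpG and 1 ETS string on the opposite strand, at bases 113 to 108 before the start. Among 32851 RefSeq promoter windows of the same length, 29.5% held the ETS string and 21.6% the RBPJ string on at least 1 strand. As few CpG as in Nr2f2 were found in 18.8% of these windows, as few as in Esm1 in 37.8%, and as few as in Apln in 68.5%. These matches describe letters in a window and are not sites of binding.

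Values are given throughout in the order control 1, mutant 1, mutant 2. The endothelial class held 719, 471 and 478 cells, whose UMIs summed to 47413354, 29267217 and 24743175. The class made up 17.8% of kept control cells, with a 95% exact binomial interval of 16.6 to 19.0 that covers counting error only. In mutant 1 the share was 13.1% (12.0 to 14.3), and in mutant 2 it was 10.2% (9.35 to 11.1). With at least 2 gate genes required, 543, 406 and 438 endothelial cells remained. They were 14.0%, 11.5% and 9.43% of the cells then left, so the shares lay closer together and depend on the gate. Of 12 endothelial genes outside the gate, including Flt1, Cldn5 and Kdr, none was at 0, and their summed level was 4218, 4422 and 4272 CPM (a gene's UMIs over all UMIs of the class, scaled to a fixed total). Mesenchyme genes summed to 15.6 to 24.1 CPM, macrophage genes to 16.2 to 21.3 and ectoderm genes to 2.55 to 4.65. Erythroid genes summed to 1125, 5332 and 1502 CPM, and were highest in mutant 1. Esco2 itself was 31.0, 22.9 and 21.8 CPM in mesenchyme and 27.3, 30.3 and 35.2 CPM in endothelium. The Cre feature was at 0, 1.11 and 1.23 CPM in mesenchyme and 0, 0.03 and 0 in endothelium. In flank-gated cells (Foxf1, Wt1, Gata4 or Gata5) Esco2 was at 31.1, 17.2 and 20.9 CPM. There the Cre feature was at 0, 1.17 and 0.66 CPM, from only 0, 7 and 2 UMIs. Between 18 and 19 barcodes of kept cells were shared by each pair of libraries, and 3 to 6 of these were endothelial.

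Across the 7 classes, Tek, Tie1, Apln, Aplnr and Esm1 had their highest level in endothelium, well apart from the next class in every library. The members were chosen as endothelial or vessel-related genes, so these class levels are given as a description with no test. Angpt1 was highest in flank-gated cells, which carry Foxf1, Wt1, Gata4 or Gata5. Ephb4 was highest in endothelium too, without overlap with the next class, but was also found in mesenchyme, ectoderm, myogenic and flank-gated cells. Nr2f2 was present in all of these and was highest in the flank class. Angpt2 lay between 7.76 and 19.2 CPM in every class, lowest in erythroid cells.

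**Figure D1:**
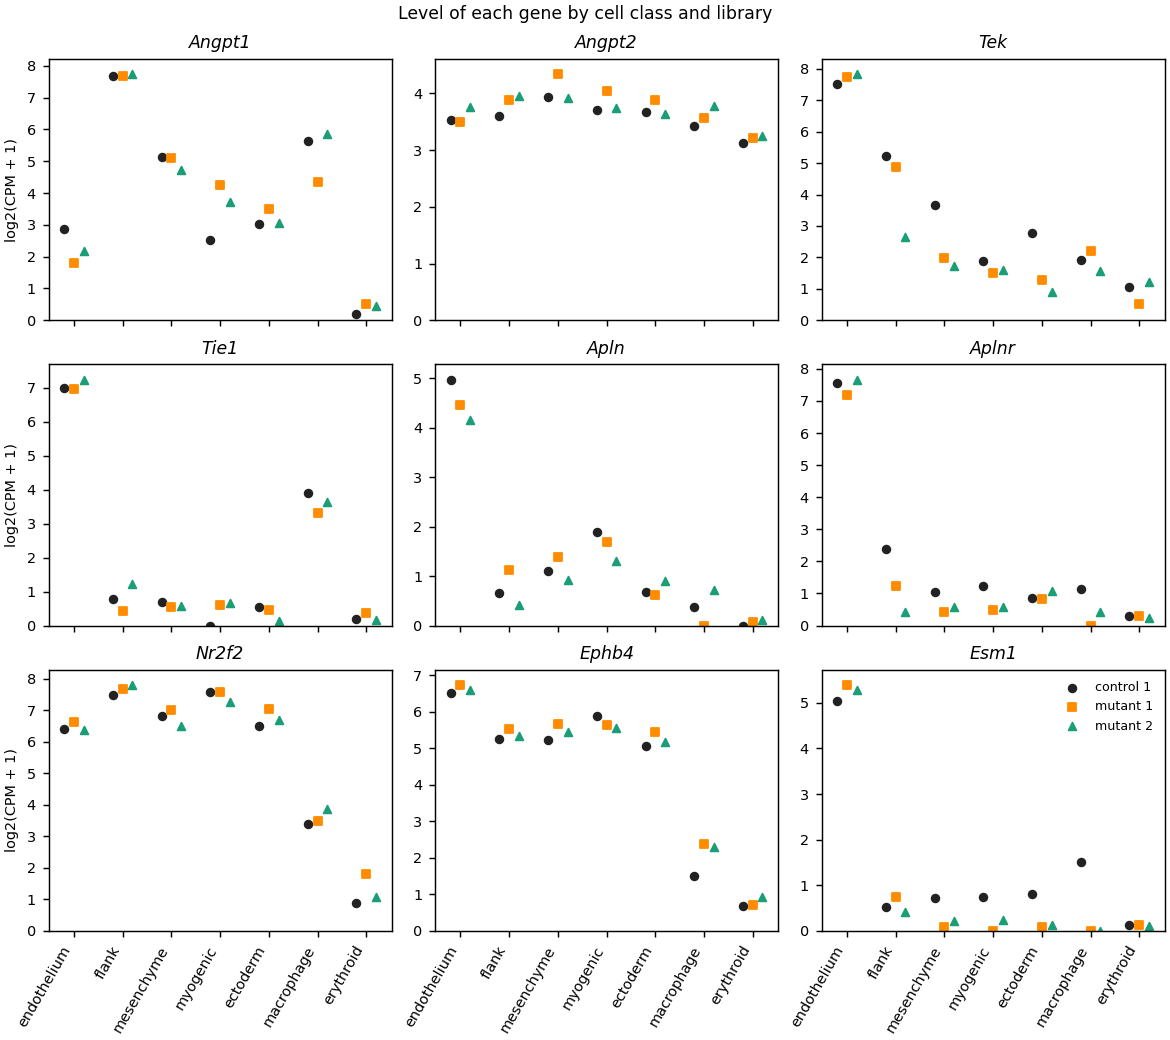
Level of each of the 9 genes, as log2(CPM + 1), in 7 marker-gated cell classes; black circles are control 1, orange squares mutant 1 and green triangles mutant 2, each the sum over the cells of a class in a library. Tek, Tie1, Apln, Aplnr and Esm1 are highest in endothelium, Angpt1 in flank-gated cells, and Angpt2 lies between 7.76 and 19.2 CPM in every class.

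Angpt1 (chr15:42424723-42676977, minus strand, GRCm38), the activating ligand, was at 202, 203 and 211 CPM in the flank class. Macrophage-gated cells had 48.5, 19.2 and 56.8 CPM and gated mesenchyme 34.5, 33.5 and 25.4 CPM, and these neighbours in the order overlapped. The macrophage class was small, with 68, 34 and 59 cells, and 2, 2 and 4 of them held at least 50% of its 159, 32 and 174 Angpt1 UMIs. In endothelium Angpt1 was at 6.26, 2.49 and 3.56 CPM, below the mean of 5 CPM required for a test. The control value rested on 1 cell: 177 of the 297 Angpt1 UMIs of control endothelium came from a cell of 386062 UMIs, which carried all 3 gate genes and also passed the macrophage gate. Without that cell the control level was 2.55 CPM, between those of the mutants.

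Angpt2 (chr8:18690263-18741562, minus strand), the second angiopoietin, was at 10.6, 10.3 and 12.5 CPM in endothelium and at 7.76, 8.30 and 8.50 CPM in erythroid cells. All of its 51300 bases lie inside Mcph1, a gene of chromosome condensation on the opposite strand, and whether reads were counted by strand is not given. Mcph1 was at 79.8, 86.8 and 87.3 CPM in endothelium. Over the 21 values of 7 classes in 3 libraries, the ratio of Angpt2 to Mcph1 lay between 0.0938 and 0.158. After every cell was thinned to 5000 UMIs, 4.16%, 4.98% and 4.40% of endothelial cells had an Angpt2 UMI, against 4.94%, 3.95% and 5.14% of erythroid cells. The endothelial shares were within the range of erythroid cells, a class that should lack the gene. Whether the endothelial UMIs are background was not tested. The CPM level was higher in endothelium than in erythroid cells in every library, and so was that of Mcph1, and whether Mcph1 reads contribute was not tested.

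**Figure D2:**
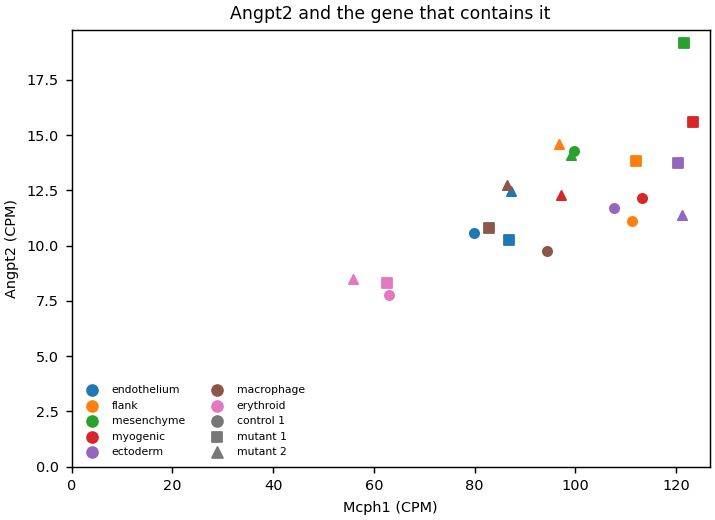
Angpt2 level (y axis, CPM) against the level of Mcph1, the gene on the opposite strand that contains it (x axis, CPM), for 7 classes (colour) in 3 libraries (shape). Erythroid sums are lowest in both genes, and the ratio stays between 0.0938 and 0.158.

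Tek (chr4:94739289-94874976, plus strand) was at 183, 215 and 226 CPM in endothelium, from 8669, 6280 and 5583 UMIs. The control library was the lowest of the 3. The flank class had 36.8, 28.5 and 5.30 CPM and gated mesenchyme 11.7, 2.95 and 2.31 CPM, and these 2 classes overlapped. Tie1 (chr4:118471191-118490061, minus strand) was at 128, 124 and 150 CPM in endothelium, where the control lay between the mutants. Its next class was macrophage-gated cells, at 14.0, 9.01 and 11.4 CPM, and no other class passed 1.33 CPM.

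Apln (chrX:48025146-48034853, minus strand) was at 30.4, 20.9 and 16.9 CPM in endothelium, with the control above both mutants. No other class passed 2.70 CPM. Its receptor gene Aplnr (chr2:85136225-85139923, plus strand) was at 187, 144 and 201 CPM in endothelium, with the control between the mutants, and at 4.23 CPM or less elsewhere. Esm1 (chr13:113209659-113218098, plus strand) was at 32.1, 40.9 and 37.9 CPM in endothelium, the control being lowest, and at 1.83 CPM or less elsewhere. Esm1 lies inside Gzmk on the opposite strand over 8440 bases, but Gzmk was at 1.33 CPM or less in every class.

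Nr2f2 (chr7:70351944-70366735, minus strand) was at 83.9, 98.8 and 82.9 CPM in endothelium, where control 1 and mutant 2 were nearly level. It was higher in the flank class, at 177, 203 and 223 CPM, and in the myogenic class, at 190, 192 and 152 CPM, and these overlapped. Mesenchyme and ectoderm held 90.7 to 131 CPM and overlapped each other, and erythroid cells had 0.83, 2.52 and 1.11 CPM. Ephb4 (chr5:137350109-137378669, plus strand) was at 89.9, 105 and 96.0 CPM in endothelium, with the control below both mutants. Its myogenic, mesenchyme, flank and ectoderm levels ran from 32.1 to 58.0 CPM and overlapped between neighbours in that order.

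The genes whose class pattern was most like each member other than Angpt2 were named by Pearson's r of log2(CPM + 1) over 18 sums, 6 classes in 3 libraries, among 12871 genes. The sums share libraries and depth, so r is a description. For Tie1 the nearest was Zfp366 (r = 0.997), for Esm1 Gimap4 (r = 0.992), for Aplnr F2rl3 (r = 0.985), for Apln Xpnpep1 (r = 0.986) and for Tek Ptchd1 (r = 0.951). For Nr2f2 it was Dse (r = 0.994), for Ephb4 Rnf144a (r = 0.995) and for Angpt1 Bves (r = 0.968). Next in likeness were Gimap1 and Klhl4 for Tie1, Esam and Kcne3 for Esm1, Samsn1 and Esm1 itself for Aplnr, Flt4 and Car8 for Apln, and Plac1 and Gfod1 for Tek. They were Mpdz and Hmga2 for Nr2f2, Fnbp1 and Rilpl1 for Ephb4, and Sv2a and Rnf213 for Angpt1.

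Between mutant and control endothelium, no member passed the test. Of the 8 tested Apln had the largest difference, with the mutants at 68.8% and 55.4% of the control level, a log2 fold of -0.72 (SE 0.21, 95% interval -1.36 to -0.09), with an unadjusted p of 0.0359 and an adjusted p of 0.687 in edgeR. Tek was higher in both mutants, with a log2 fold of 0.23 (SE 0.08, -0.02 to 0.48, edgeR adjusted p = 0.687). Esm1 had 0.26 (-0.15 to 0.66) and Ephb4 0.13 (-0.26 to 0.51), and in both the control lay below the 2 mutants. For Aplnr the log2 fold was -0.16 (-0.88 to 0.56), for Nr2f2 0.08 (-0.44 to 0.60), for Tie1 0.06 (-0.39 to 0.52) and for Angpt2 0.07 (-0.52 to 0.65). In these 4 genes the control lay between the mutants.

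The edgeR quasi-likelihood test was run on UMIs summed per library, with Benjamini-Hochberg adjustment over all 9756 genes tested. It called 0 genes, 0% of those tested, and 667 had an unadjusted p under 0.05. DESeq2 called 51 genes, 25 higher and 26 lower in the mutants, and no member was among them. With 1 control the fit has 1 residual degree of freedom, the single control is taken to vary as the mutants do, and an exact permutation test of a single value cannot go below p = 0.333. Of the 8 members tested 6 had a positive log2 fold, and their median was 0.07, against 51.1% positive and a median of 0.01 over all genes tested. These intervals are not adjusted for the number of genes tested. Those of all members but Apln included 0. Apln had the largest difference of the 8 and did not pass after adjustment, so its direction is not settled either. In the bulk of a class, fewer positive cells and less RNA per cell cannot be told apart.

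**Figure D3:**
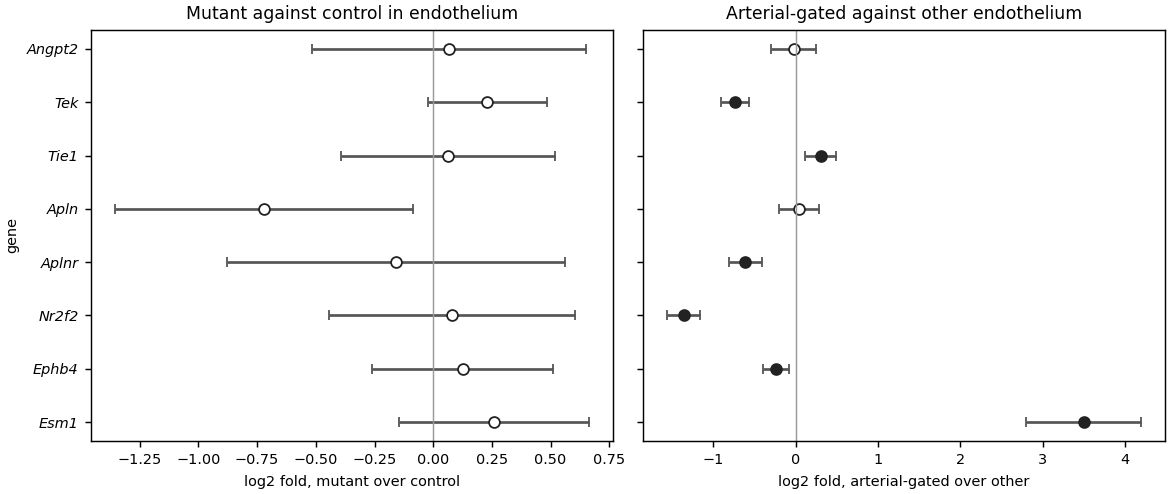
Log2 fold with its 95% interval from edgeR for the 8 members tested, mutant over control in endothelium (left) and arterial-gated over other endothelium (right); filled points have an adjusted p under 0.05 and open points do not. The intervals are not adjusted for the number of genes tested. No point is filled on the left, where the interval of Apln ends at -0.09. Esm1 at 3.50 and Nr2f2 at -1.36 are furthest apart on the right.

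At equal depth, shares of endothelial cells with a UMI ordered the libraries as CPM did for Apln, Tek, Aplnr, Tie1, Ephb4 and Nr2f2. For Esm1 they did not. The shares come from cells that also gave the CPM levels, so they are no separate support. After thinning to 5000 UMIs, which left 505, 402 and 432 endothelial cells and dropped 214, 69 and 46 shallower ones, 11.7%, 8.96% and 6.02% had an Apln UMI. Unthinned, Apln UMIs were found in 45.3%, 40.3% and 30.1% of cells, whose median depth was 60939, 59369 and 49760 UMIs. For Tek the thinned shares were 55.3%, 58.0% and 63.9%. Aplnr was found in 55.6%, 49.5% and 58.1%, Tie1 in 46.5%, 45.5% and 49.1%, Ephb4 in 35.8%, 42.5% and 38.7%, and Nr2f2 in 34.1%, 34.6% and 29.6%. Esm1 was found in 11.1%, 12.2% and 10.2%. In thinned erythroid cells no member other than Angpt2 exceeded 1.15%.

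Esm1 was the most concentrated of the endothelial members. In control endothelium 25 cells held 50% of the Esm1 UMIs, against 63 cells for Apln and 114 for Tek, and the numbers were 13, 37 and 84 in mutant 1 and 15, 21 and 105 in mutant 2. At 5000 UMIs, cells with both Nr2f2 and Esm1 numbered 5, 9 and 7, where independent detection would give 19.1, 16.9 and 13.0. Cells with both Aplnr and Esm1 numbered 19, 17 and 18, against 31.2, 24.3 and 25.6 under independence. Tek and Nr2f2 were found together in 110, 89 and 86 cells, against 95.0, 80.6 and 81.8. In each library Esm1 thus overlapped less with Nr2f2 and Aplnr than independence gives, and Tek and Nr2f2 more, and these counts of cells carry no test. The pairs are a selection, and others also kept 1 direction in each library. Tek with Esm1 was lower (12, 25 and 19 cells against 30.9, 28.4 and 28.1). Tie1 with Esm1 was higher (34, 25 and 22 against 26.1, 22.3 and 21.6), and so were Tek with Aplnr and Tek with Ephb4.

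Endothelial cells were then divided by an arterial gate that uses none of the 9 genes: Dll4, Hey1, Gja4, Gja5, Sox17 and Unc5b summing to at least 2 per 10000 UMIs. Dll4 and Unc5b are also on the tip cell list used below, so the gate cannot tell arterial cells from tip cells. This bears on Esm1, a marker of tip cells, and on the tip cell list. Arterial-gated cells numbered 249, 199 and 142, or 34.6%, 42.3% and 29.7% of endothelial cells, and 155, 126 and 91 cells lay near the limit, between 1 and 3. Among endothelial cells of at least 5000 UMIs the shares were 43.6%, 45.3% and 31.25%, so they depend on depth. Median depth was 81291, 58317 and 43957.5 UMIs in all arterial-gated cells, against 35927, 60451 and 53143.5 in the rest. Of the 8 members tested, Esm1 and Tie1 were higher in arterial-gated cells, Nr2f2, Tek, Aplnr and Ephb4 were lower, and Apln and Angpt2 did not pass the test. The 6 called are read against 28.3% of all 9781 genes tested, 16.1% higher and 12.3% lower. The gate genes that define the split are no result. Erythroid RNA moved with the split: all 5 erythroid genes tested were lower in arterial-gated cells, and the list summed to 631, 3771 and 512 CPM there against 1466, 6584 and 1873 CPM in the rest. Of 9 dissociation genes, early-response and heat-shock genes induced when tissue is taken apart, 2 were higher and 4 lower, with sums of 487, 546 and 371 CPM against 501, 495 and 420 CPM. The part of either in the members' differences was not tested.

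Esm1 was at 72.5, 88.2 and 91.0 CPM in arterial-gated cells and at 4.34, 3.02 and 17.9 CPM in the rest. Every arterial-gated sum exceeded every other sum, and the rest of mutant 2 stood above the rest of the other libraries. The log2 fold was 3.50 (SE 0.32, edgeR adjusted p = 1.88e-05, higher in 3 of 3 libraries). Tie1 was at 141, 130 and 200 CPM against 118, 118 and 131 CPM, a log2 fold of 0.31 (SE 0.08, edgeR adjusted p = 0.0209). Most of that difference was in mutant 2, and without it the fold was 0.18 with an edgeR adjusted p of 0.229.

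Nr2f2 was at 49.5, 53.7 and 32.9 CPM in arterial-gated cells and 108, 135 and 102 CPM in the rest, with no overlap. Its log2 fold was -1.36 (SE 0.09, edgeR adjusted p = 2.58e-06). Tek was at 145, 145 and 155 CPM against 209, 270 and 252 CPM, again with no overlap, a log2 fold of -0.73 (SE 0.08, edgeR adjusted p = 5.31e-05). Aplnr was at 167, 103 and 135 CPM against 201, 176 and 226 CPM, with a log2 fold of -0.61 (SE 0.09, edgeR adjusted p = 0.000651), and was lower in arterial-gated cells of all 3 libraries. Ephb4, the venous ephrin receptor, was only slightly lower, at 81.9, 92.2 and 92.4 CPM against 95.5, 116 and 97.4 CPM. Its log2 fold of -0.24 (SE 0.07, edgeR adjusted p = 0.0275) lost its call without control 1 (-0.23, adjusted p = 0.116), without mutant 1 (-0.22, adjusted p = 0.0734) and with the gate at 4 per 10000 (-0.09, adjusted p = 0.435).

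Apln was at 28.2, 23.7 and 17.9 CPM in arterial-gated cells and 32.0, 18.8 and 16.4 CPM in the rest. It was lower in arterial-gated cells in the control and higher in both mutants, and the log2 fold was 0.04 (SE 0.11, edgeR adjusted p = 0.826). With the gate at 4 per 10000 the fold was -0.54 (edgeR adjusted p = 0.0140), so its sign depends on where the gate is set. Angpt1, under the filter here, was at 1.66, 2.07 and 1.78 CPM in arterial-gated cells and 9.44, 2.83 and 4.22 CPM in the rest, which hold the control cell rich in Angpt1.

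**Figure D4:**
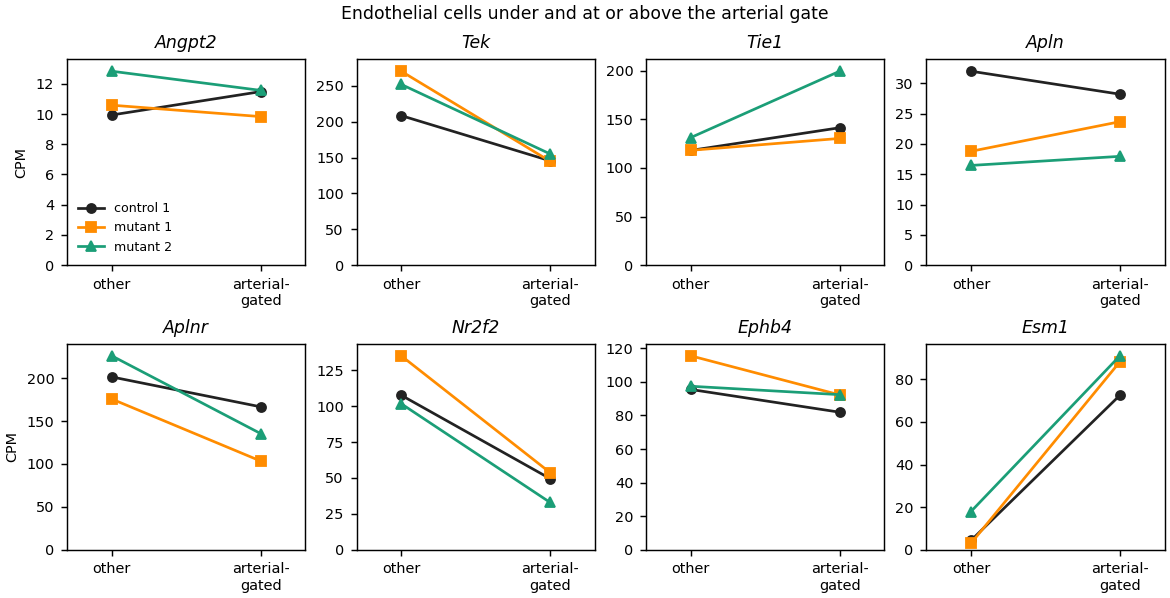
Level (CPM, axes from 0) of the 8 tested members in endothelial cells under the arterial gate (left of each panel) and at or above it (right), with a line for each library: control 1 black, mutant 1 orange, mutant 2 green. Esm1 rises and Nr2f2, Tek and Aplnr fall in all 3 libraries, and Apln has no common direction.

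Genes that work with the members were followed in lists. Of the angiopoietin-Tie pathway 7 of 14 genes were tested between arterial-gated and other endothelium, and 3 were higher and 1 lower. These counts stand beside 28.3% called over all genes, 16.1% higher and 12.3% lower. Pik3r1, a subunit of phosphoinositide 3-kinase, had a log2 fold of 0.55, the transcription factor gene Foxo1 0.45 and Ptprb, the phosphatase that acts on Tie2, 0.35, while the flow-responsive factor gene Klf2 was lower at -0.44. Of 7 apelin pathway genes tested 2 were called, near the share over all genes: Nos3, endothelial nitric oxide synthase, higher (0.29) and Klf4 lower (-1.11). Of 3 ephrin B partners of Ephb4 tested, Efnb2, the arterial ligand, was higher by 1.77 and Rasa1, a Ras GTPase activator that acts downstream of Ephb4, by 0.28. Of 8 venous and lymphatic genes tested 1 was higher, Plxnd1 (0.40), and 3 were lower, Nrp2 (-1.35), Stab2 (-1.12) and Dab2 (-0.73). The tip cell list had 11 genes higher, 2 of them in the gate itself, and 1 lower of 14 tested, with Igfbp3 at 2.35, Nid2 at 1.17, Lama4 at 1.02 and Pdgfb at 0.80. The lower one was Ednrb, an endothelin receptor gene, at -0.74, which was named after its value was seen.

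Between mutant and control endothelium none of these lists had a called gene. The median log2 fold was 0.41 over 7 angiopoietin-Tie genes, 0.03 over 7 apelin genes, -0.02 over 3 ephrin partners, 0.02 over 8 venous and lymphatic genes and -0.19 over 13 tip cell genes, against 0.01 over all genes tested. Ptprb was at 126, 170 and 188 CPM and Foxo1 at 84.9, 98.8 and 94.1 CPM, both lowest in the control. Itgb1, an integrin subunit gene that was the most abundant of its list, was at 552, 479 and 450 CPM, highest in the control. Efnb2 was at 130, 125 and 128 CPM, Plxnd1 at 367, 339 and 365 CPM and Kdr, the main VEGF receptor gene, at 507, 530 and 539 CPM.

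In gated mesenchyme, a class in which the Cre transgene acts, Tek was the only member called. It was at 11.7, 2.95 and 2.31 CPM, from 719, 159 and 248 UMIs, and the control stood above both mutants. The log2 fold was -2.21 (SE 0.30, edgeR adjusted p = 6.29e-11), among 226 genes called, 2.23% of 10149 tested, with 1.08% higher and 1.14% lower. This fit gave no weight to each gene's own spread (infinite prior degrees of freedom, against 2.18 in endothelium). Its number of calls is therefore not comparable with that of endothelium. Genes with an unadjusted edgeR p under 0.05 numbered 603 here and 667 in endothelium. Tek reached the mean of 5 CPM only through the control, where it was high, and it was called with no filter too (-2.25, edgeR adjusted p = 8.65e-11). Of 9 dissociation genes tested in the same comparison 3 were higher and 1 lower, with a median log2 fold of 0.70 and sums of 262, 298 and 297 CPM, and their part in the result was not tested. The other 4 members tested did not pass. Angpt1 had a log2 fold of -0.29 (95% interval -0.80 to 0.23), Angpt2 0.16 (-0.38 to 0.70), Nr2f2 -0.10 (-0.77 to 0.57) and Ephb4 0.27 (-0.29 to 0.84). Of the pathway lists Svep1, an extracellular ligand of Tie1, was lower in mutant mesenchyme (-0.86, edgeR adjusted p = 0.0483), and so was Plaur, the urokinase receptor gene of the tip cell list (-0.99, edgeR adjusted p = 0.00829).

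The Tek UMIs of mesenchyme sat in few cells. Cells with at least 5 Tek UMIs numbered 31, 7 and 9 of 1344, 1286 and 2299, and held 92.8%, 43.4% and 44.0% of the Tek UMIs. These cells, chosen by their Tek count, differed in limb bud mesenchyme genes. Lhx2 was at 0.37, 0 and 5.43 CPM, against 66.1, 117 and 121 CPM in the rest, and Lhx9 was low too, at 2.20, 41.6 and 27.1 CPM against 167, 210 and 255 CPM. Prrx1 was at 129, 194 and 288 CPM against 396, 525 and 504 CPM, and Tbx5 at 46.5, 114 and 160 CPM against 111, 132 and 108 CPM, so both gate genes were present and Tbx5 was higher in mutant 2. Gata6 was at 303, 328 and 209 CPM against 47.2, 39.7 and 17.5 CPM, and Col1a1 at 1978, 402 and 4544 CPM against 52.7, 40.7 and 22.5 CPM. Of the endothelial gate genes in them, Cdh5 was at 1.46, 0 and 2.71 CPM, Emcn at 1.10, 0 and 0 CPM and Pecam1 at 1.10, 33.3 and 0 CPM. Kdr, outside that gate, was higher in them than in the rest, at 27.4, 13.9 and 38.0 CPM against 1.43, 1.38 and 1.10 CPM. In the control their median depth was 84663 UMIs, against 24637 in the remaining cells, and in the mutants it was 50524 against 31759 and 31020 against 48032. In mesenchyme cells with Lhx2 and Lhx9 summing to at least 1 per 10000 UMIs, 663, 778 and 1730 in number, Tek was at 0.62, 1.84 and 1.48 CPM and was lowest in the control. With cells thinned to 5000 UMIs the Tek fold was -1.30 (edgeR adjusted p = 0.364).

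**Figure D5:**
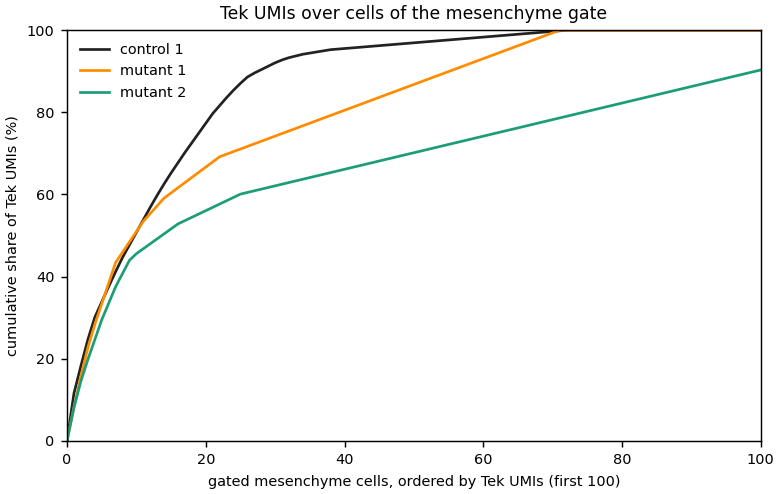
Cumulative share of the Tek UMIs of gated mesenchyme (y axis, percent) over the first 100 cells, ordered within a library by their Tek UMIs (x axis). In control 1 the first 31 cells hold 92.8%, and in mutant 1 and mutant 2 the first 7 and 9 cells hold 43.4% and 44.0%.

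The mutant effect was also set against itself between endothelium and mesenchyme, with an interaction term fitted in edgeR. The test called 2.91% of 10291 genes, 1.46% higher and 1.45% lower in endothelium, and 4 members were among them. This fit too gave no weight to each gene's own spread (infinite prior degrees of freedom). The count of members says little, because most had passed the filter through the class where they are high. The log2 difference for Tek was 2.42 (SE 0.28, edgeR adjusted p = 1.68e-15), with Tek lowest in the control in endothelium and highest in the control in mesenchyme. Esm1 (2.57), Aplnr (1.19) and Angpt1 (-0.84) were called by edgeR and not by DESeq2. Esm1, at 0.65, 0.06 and 0.17 CPM in mesenchyme (40, 3 and 18 UMIs), and Aplnr, at 1.07, 0.35 and 0.49 CPM there, passed the filter only through endothelium, and Angpt1 only through mesenchyme. Without the 1 control endothelial cell rich in Angpt1 the difference for that gene was 0.45 (edgeR adjusted p = 0.868). Apln, at -0.80 (-1.43 to -0.17, edgeR adjusted p = 0.239), did not pass. In the same fit 4 of 5 erythroid genes were higher and 3 of 10 dissociation genes lower by this difference, and their part in it was not tested.

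In gated ectoderm and erythroid cells edgeR called 0 of 10778 and 0 of 7279 genes, 0% of each, with 560 and 173 at an unadjusted p under 0.05. DESeq2 was not run on these classes. Angpt1 in ectoderm had a log2 fold of 0.24 (-0.88 to 1.36) and Nr2f2 one of 0.30 (-0.36 to 0.95), both with wide intervals.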

How the data were processed

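The deposited matrices hold raw UMI counts per gene and barcode, written by Cell Ranger 7.0.0 per the file headers; mm10 was the build and Seurat 4.0.0 was used, in a role not given, per the submitters' processing notes. No source used here gives the annotation or the handling of introns and strand. The matrices held 6527, 7219 and 8755 barcodes (control 1, mutant 1, mutant 2). Barcodes with at least 500 genes and under 10% mitochondrial UMIs were kept and 41, 96 and 122 Scrublet doublets (scanpy 1.11.5, expected rate 0.06) removed, leaving 4048, 3590 and 4684 cells at median depths of 23045.5, 36295.5 and 41449.5 UMIs. Each cell took the first gate it passed, in the order endothelium, erythroid (500 per 10000 UMIs), macrophage, ectoderm, myogenic, flank and mesenchyme (2 per 10000). Of endothelial cells 81, 50 and 34 passed another gate too, and 30, 15 and 13 lay at 2 to 4 per 10000, with 27, 21 and 29 cells at 1 to 2 just outside.

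CPM is a gene's share of the summed UMIs of a class. Sums were tested with edgeR 4.0.16 in R 4.3.3 (glmQLFit, glmQLFTest, TMM factors, mean of at least 5 CPM, adjusted p under 0.05), with a term per library where 2 classes or gates were compared. The same scripts were tested on simulated data. DESeq2 1.42.0, other filters, scaling, gates and depths and single libraries left out were the alternatives, 37 in all, and 4 were added after seeing the data. The 9 genes and the lists were chosen with earlier results of these data known. Of each list up to 4 genes passing a test were named by adjusted p, otherwise up to 3 by endothelial level, and per member the 3 most alike genes; those of Angpt2 are not reported here. Shares use exact Clopper-Pearson intervals. Loci are from GENCODE M21 and promoters from RefSeq.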

Additional observations from a re-analysis of the deposited data

Results flagged for a closer look

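The edgeR interaction test of the mutant effect between endothelium and mesenchyme called 4 of the 9 members, beside 2.91% of all 10291 genes tested. Of these members, Esm1 and Aplnr passed the filter on low values only through endothelium, and Angpt1 only through mesenchyme. The count of members therefore says little. The log2 difference, endothelium minus mesenchyme, was 2.42 for Tek (edgeR adjusted p = 1.68e-15), in a fit that gave no weight to each gene's own spread. In control mesenchyme 31 of 1344 cells held 92.8% of the Tek UMIs. Among mesenchyme cells with Lhx2 or Lhx9, Tek was lowest in the control, at 0.62, 1.84 and 1.48 CPM. For Esm1 the log2 difference was 2.57 (edgeR adjusted p = 1.32e-07, DESeq2 adjusted p = 0.9998). For Aplnr it was 1.19 (edgeR adjusted p = 0.0364), with a DESeq2 adjusted p of 0.0846 and an edgeR adjusted p of 0.0758 in cells of at least 5000 UMIs. For Angpt1 it was -0.84 (edgeR adjusted p = 0.0399, DESeq2 adjusted p = 0.9998), and it turned positive without 1 control cell.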

How the results depend on the processing

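No paired analysis was possible because the control label carries no replicate number and there is 1 control library. DESeq2 called 51 genes in endothelium, 86 against 226 in mesenchyme, 1834 against 2770 for the arterial gate and 62 against 299 for the interaction. A filter at a mean of 1 CPM gave 450 in mesenchyme and 476 for the interaction, no filter on low counts gave 755 in mesenchyme, and cells thinned to 5000 UMIs gave 56. Leaving out a library gave 1918 to 2468 calls for the arterial gate. In endothelium every edgeR alternative called 0 genes.

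Values that changed sign and were called under 1 of the settings compared were Apln with the arterial gate at 4 per 10000 (-0.54, against 0.04) and the Angpt1 interaction without 1 control cell (0.45, against -0.84). Tek, called lower in mutant mesenchyme, was lowest in the control among cells with Lhx2 or Lhx9, where it was under the filter and untested. Over 17 alternatives in endothelium the log2 fold kept its sign in all for Apln (-0.90 to -0.44), Tek, Ephb4 and Esm1, in 16 for Tie1, 15 for Aplnr and 14 for Angpt2 and Nr2f2. Esm1 reached 1.22 in cells under the arterial gate, where its level is low. Angpt1 in mesenchyme, uncalled in both, had 0.38 among cells with Lhx2 or Lhx9 against -0.29 in all. Fits of mutants against control without 1 mutant are values with no test. The single control limits every mutant comparison, and the cause of each change was not tested.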
